A study of Mus musculus with 3 samples.

Results

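The genes of the proteasome and the immunoproteasome were followed in thymocytes, the precursors of T cells, in mice of 3 genotypes. Members were chosen by name, as genes whose symbol starts with Psma to Psmg followed by a digit. The rule took 50 of the 19938 genes named on the array. Psmc3ip and Psme3ip1 matched it but encode a meiotic recombination factor and a partner of a proteasome activator, and are not parts of the proteasome, so 48 genes were kept. The study compared the genotypes to find genes that follow β-catenin and TCF-1, a DNA-binding protein that β-catenin joins in the Wnt pathway, with thymocyte development and cell death in view. Each genotype had 1 array of total RNA from unsorted thymocytes: wild type at 12 weeks of age, β-catenin transgenic at 16 weeks, and TCF-1-deficient (TCF-1-/-) at 8 weeks. The labels do not name the promoter of the transgene, the strain or how many mice gave each RNA. No allele or treatment is given as common to the 3 groups. With 1 array per genotype there is no replicate error, no test was possible, and every difference below compares single arrays.

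The proteasome degrades proteins that carry ubiquitin chains. Its barrel-shaped core particle is built of rings of α subunits, which control entry, and rings of β subunits, of which β1, β2 and β5 cut the substrate. A regulatory particle caps the core, binds ubiquitin, removes it and unfolds the substrate with a ring of ATPases. Interferon induces Psmb9, Psmb10 and Psmb8, which replace the constitutive Psmb6 (β1), Psmb7 (β2) and Psmb5 (β5) in newly made immunoproteasomes and change which peptides reach class I MHC molecules. Haematopoietic cells also carry them without infection. Psmb11 takes the β5 position in cortical thymic epithelial cells only, in the proteasome that shapes peptides for positive selection of CD8 T cells. Psma8 is an α subunit of male germ cells.

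Bases before the start of the inducible genes, and for Psme1 those around a match after the start, are shown first. These genes are the ones the comparison turns on, and Psmb9 shares its promoter with another gene. All sequences are from the RefSeq promoter windows of build GRCm38.p6 and are written along the named gene, with capitals marking matches to the interferon-stimulated response element (GAAA, any pair of bases, GAAA), to the gamma-activated site (TTCNNNGAA) or to CCAAT, on either strand. For a gene with several windows, the one of the start farthest upstream was used. The 225 bases between the starts of Psmb9 and Tap1, at chr17:34187331-34187555 and here on the minus strand, are the upstream sequence of both genes, which are read in opposite directions.
Psmb9 and Tap1: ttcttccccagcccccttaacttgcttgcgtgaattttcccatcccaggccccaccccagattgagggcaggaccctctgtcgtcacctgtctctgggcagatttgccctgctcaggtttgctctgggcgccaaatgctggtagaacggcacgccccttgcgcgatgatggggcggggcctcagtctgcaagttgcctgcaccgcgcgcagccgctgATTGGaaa
For Psmb8 (chr17:34197945-34198194, plus strand), Psmb10 (chr8:105938393-105938642, minus strand) and Psme2 (chr14:55591102-55591351, minus strand), which encodes a subunit of the interferon-induced activator PA28, the 250 bases before the start are given.
Psmb8: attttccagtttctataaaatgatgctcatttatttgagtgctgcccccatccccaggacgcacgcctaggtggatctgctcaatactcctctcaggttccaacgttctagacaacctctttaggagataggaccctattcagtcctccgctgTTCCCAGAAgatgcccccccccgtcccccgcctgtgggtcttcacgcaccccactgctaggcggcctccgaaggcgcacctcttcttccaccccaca
Psmb10: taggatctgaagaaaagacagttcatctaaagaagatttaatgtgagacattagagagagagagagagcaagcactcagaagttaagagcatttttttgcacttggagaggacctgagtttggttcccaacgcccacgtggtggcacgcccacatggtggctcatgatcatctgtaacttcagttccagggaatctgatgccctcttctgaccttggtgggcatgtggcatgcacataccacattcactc
Psme2: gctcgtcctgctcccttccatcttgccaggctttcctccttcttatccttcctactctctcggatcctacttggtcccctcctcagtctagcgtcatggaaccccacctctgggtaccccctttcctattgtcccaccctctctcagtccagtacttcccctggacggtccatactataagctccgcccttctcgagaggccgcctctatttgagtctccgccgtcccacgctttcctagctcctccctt
For Psme1, the other PA28 subunit, the 30 bases around its match are shown (chr14:55578493-55578522, plus strand). This match lies after the start, at bases 10 to 19.
Psme1: cgagctgtgcTTTCGCTTTCccttcccgct

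Of the 48 genes, 41 had a window in the table, running from 250 bases before to 50 after the start, and some had several, which made 44 windows. The interferon-stimulated response element was found in 5 of the 44 windows (11.4%), those of Psme1, Psmb3, Psmd4, Psmd9 and Psmg4, and in 3.44% of all 32851 windows. TTCNNNGAA was found in 3 windows (6.82%), those of Psmb8, Psmd2 and Psmg1, against 8.30% of all windows. The core of the antioxidant response element, TGANNNNGC, through which the factor Nfe2l1 acts on proteasome genes, was found in 25 windows (56.8%) of 23 genes, against 41.3% of windows. CCAAT was found in 14 windows (31.8%) against 37.4%, and the TCF site CTTTGAT in 2 (4.55%), those of Psmd4 and Psmd10, against 3.73%. Matches of different motifs overlapped in Psmd4, Psmd10, Psmg1 and Psmg4. These matches describe letters in the windows, and a missing match says nothing about a factor.

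Every value below is a deposited log2 value, and a difference is that of log2 values. Genes were called higher or lower at 2-fold, a difference of 1, and also at 1.5-fold, a difference of 0.58; both are rules of size. The 7 measured T lineage markers, such as Cd3e and Thy1, were at 10.55 or higher in every genotype. The 8 measured markers of double-positive thymocytes, the CD4+CD8+ stage, were each lower by at least 2-fold without TCF-1 (median -2.02). Xist, which females transcribe from the inactive X, had 12.49 in wild type, 12.17 without TCF-1 and 4.86 with the transgene. In the transgenic comparisons, genotype and age go together with this sex-linked gene and cannot be told apart from it; in the other, genotype and age cannot be told apart. In unsorted cells a different share of a cell type and a different RNA level per cell cannot be told apart either. Many deposited values are the same to the last digit on several arrays, so a difference of 0 is not a measured equality: 9 of the 48 genes (18.8%) had 1 value on all 3 arrays, against 33.6% of all named genes.

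Without TCF-1, most proteasome genes were slightly higher than in wild type thymocytes, and none was far from it. Of the 48 genes, 34 were above wild type, 5 below and 9 identical, while of all named genes 37.6% were above, 26.1% below and 36.4% identical. Among the named genes at or above the median level of 6.90, which are closer to the members in brightness, 35.4% were above and 45.8% below. The differences ran from -0.10 for Psmd8 to 0.72 for Psme2, with a median of 0.13 and quartiles of 0 and 0.28. Over all named genes the median was 0. At 2-fold, 0 of the 48 were higher and 0 lower, against 1.33% and 2.62% of named genes, and at 1.5-fold 1 was higher, Psme2, and 0 lower, against 4.04% and 6.9%. Of the brighter named genes, 18.8% were identical to wild type, 1.91% were higher and 4.75% lower at 2-fold, and 5.88% higher and 12.7% lower at 1.5-fold.

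**Figure D1:**
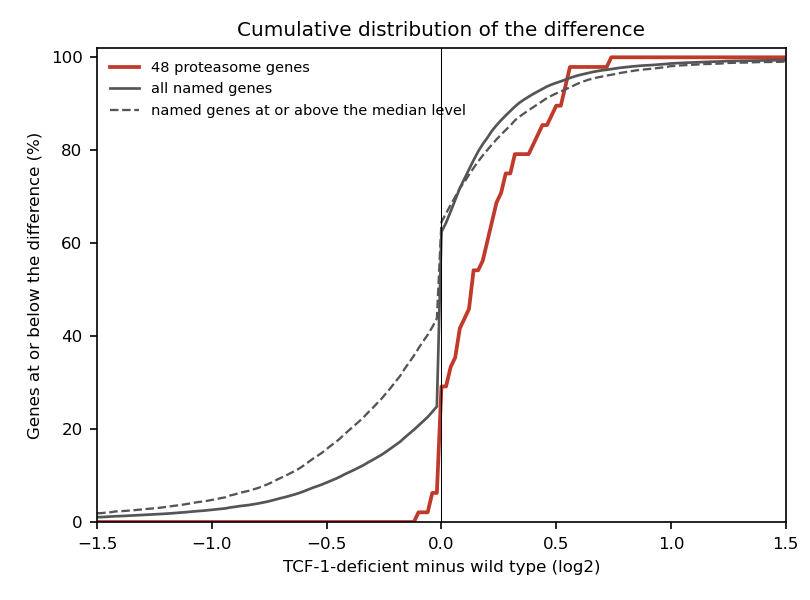
Cumulative percentage of genes (vertical axis) at or below each log2 difference between the TCF-1-deficient and the wild type array (horizontal axis), for the 48 proteasome genes, all named genes and the named genes at or above the median level. At a difference of 0 the curve stands at 29.2% for the proteasome genes, 62.4% for all named genes and 64.6% for the brighter ones, and that of the proteasome genes spans only -0.10 to 0.72.

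The direction of these small differences depends on how the arrays are scaled. With each array centred on its median over all probe sets, which moves every difference by 0.13, all 48 genes were above wild type (80.7% of named genes were), and 7 were higher by 1.5-fold, against 6.42% of named genes: Psme2, Psmb9, Psmb10, Psmg1, Psma3, Psmd1 and Psmb5. Centred on the median over named genes, which moves differences by -0.05, 32 were above and 16 below, against 32.0% and 68.0% of named genes, and Psme2 alone was higher by 1.5-fold, against 3.41% of named genes; Psma6 and Psmc6 were the genes above wild type that turned below it. With the trend of the difference over brightness removed by loess, 43 were above and 5 below, against 41.8% and 58.2%, and 3 were higher by 1.5-fold, against 4.17% of named genes: Psme2, Psmg1 and Psma3. In each of the 4 scalings the share of members above wild type was larger than that of named genes.

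**Figure D2:**
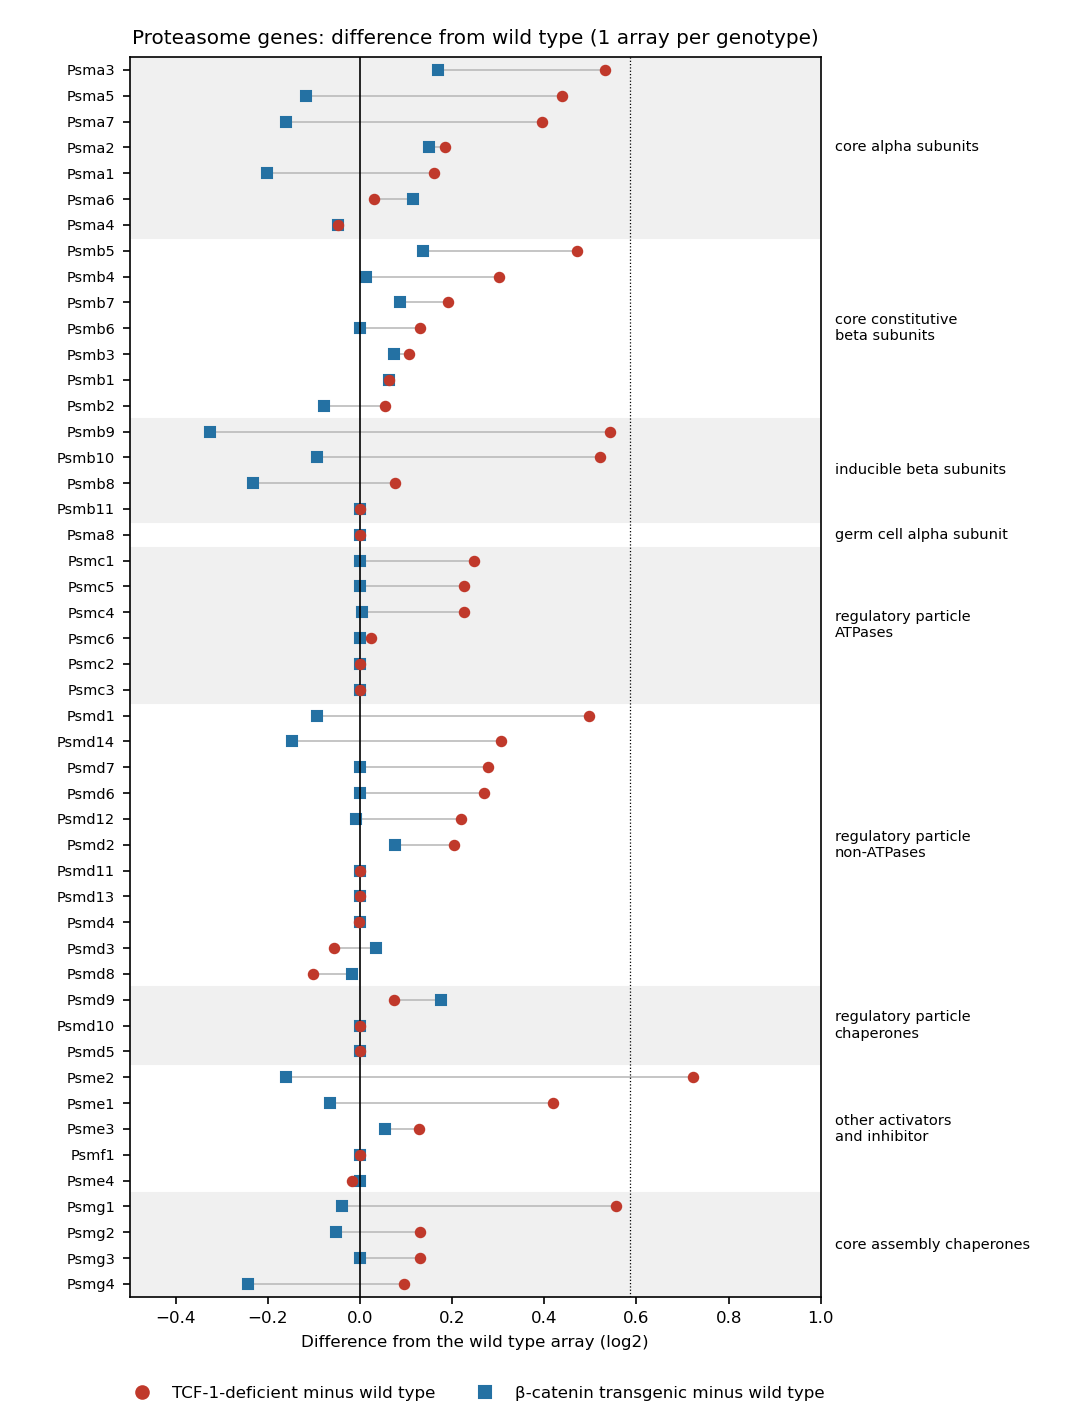
Difference from the wild type array in log2 units (horizontal axis) of each of the 48 genes, grouped by role; circles are the TCF-1-deficient array and squares the β-catenin transgenic array, with 1 array per genotype. The dotted line marks 1.5-fold, which the circle of Psme2 alone passes, and the largest gaps between circle and square are those of Psme2 and Psmb9.

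The core α subunits, which form the outer rings, were above wild type in 6 of 7 cases without TCF-1, with a median of 0.18. Psma3 had 10.21 in wild type, 10.38 with the transgene and 10.74 without TCF-1, a difference of 0.53 (1.44-fold) without TCF-1. Its 3 probe sets gave 0.49, 0.53 and 0.58, so all of them placed it above wild type. Psma5 was at 9.14, 9.03 and 9.58 in the same order, and Psma7 at 9.28, 9.12 and 9.68. On these probe sets both were highest without TCF-1 and lowest with the transgene. The dimmer probe set of Psma5 gave 8.45 in wild type and with the transgene and 8.83 without TCF-1. Psma4 was the 1 α subunit below wild type without TCF-1, at 9.42 against 9.47. The germ cell subunit Psma8 was at 4.91 on all 3 arrays, below the median level of named genes.

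All 7 constitutive β subunits were above wild type without TCF-1, by 0.05 (Psmb2) to 0.47 (Psmb5), with a median of 0.13. Psmb5, which carries the chymotrypsin-like activity, was at 11.51 in wild type, 11.64 with the transgene and 11.98 without TCF-1, so it was above wild type on both other arrays. Psmb6, the caspase-like subunit, was at 9.94, 9.94 and 10.07. Psmb7, the trypsin-like subunit, was at 10.06, 10.14 and 10.25. Psmb4, which has a structural role, was higher by 0.30 without TCF-1. Psmb3 had probe sets that differed, at 0.33 and 0.11, and the brighter one, which gave 0.11, was used. Several probe sets under 1 symbol can include processed copies of the gene, and which transcript each set measures is not known here.

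The inducible subunits did not move as 1 block. Psmb9 was at 9.04 in wild type, 8.71 with the transgene and 9.58 without TCF-1. It was thus 1.46-fold higher without TCF-1, where its difference lay at percentile 95.3 of named genes, and 1.25-fold lower with the transgene, at percentile 2.98. Of the brighter named genes, 93.1% had differences of 0.54 or less without TCF-1. Psmb10 was at 8.96, 8.87 and 9.48, a difference of 0.52 (1.44-fold) without TCF-1 and of -0.09 with the transgene. Psmb8 was at 10.39, 10.16 and 10.46, a difference of 0.08 without TCF-1 and of -0.23 with the transgene. All 3 were thus below wild type with the transgene and above it without TCF-1, in each of the 4 scalings, both read against the same wild type array. Psmb8 was close to wild type without TCF-1, where Psmb9 and Psmb10 were not. Psmb11 was at 5.96 on all 3 arrays, below the median level of named genes. Of the markers listed for the cortical epithelium in which Psmb11 is made, Foxn1 was at 6.10, 6.10 and 6.15, below that median too. Tbata (6.17), Epcam (6.20), Krt18 (5.74), Cxcl12 (5.64) and Enpep (5.28) each had 1 value on all arrays, also below it. Over all 12 measured markers of this list, 4 were above wild type without TCF-1, 3 below and 5 identical, and 4 were above, 1 below and 7 identical with the transgene. Of all named genes, 37.6% were above, 26.1% below and 36.4% identical without TCF-1, and 24.5%, 22.2% and 53.3% with the transgene. Prss16 (6.14, 6.42 and 6.59), Krt8 (6.45, 6.74 and 6.79) and Dll4 (6.51, 6.73 and 6.73) were above wild type on both other arrays and below that median on all. Above the median on all arrays were Ly75 (8.48, 8.48 and 8.40), Ccl25 (7.37, 7.34 and 7.26) and Ctsl, a protease that other cells make as well (9.95, 11.66 and 8.17).

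**Figure D3:**
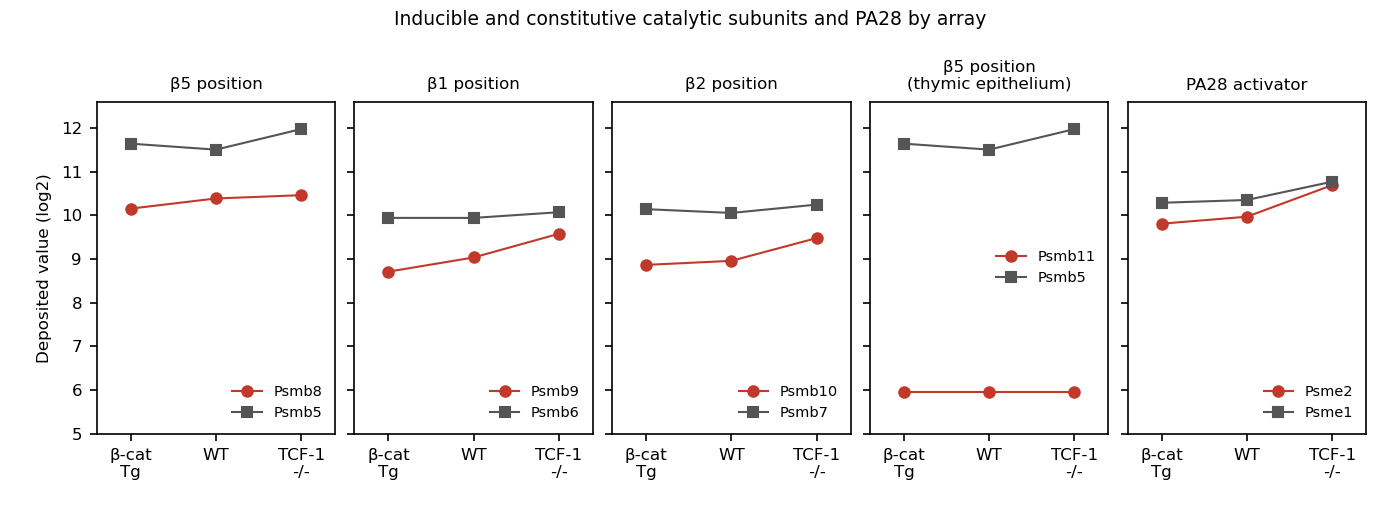
Deposited log2 values (vertical axis) of each inducible catalytic subunit with the constitutive subunit it replaces, and of the PA28 pair, on the transgenic, wild type and TCF-1-deficient arrays (horizontal axis, 1 array each; lines only join points of 1 gene). Psmb9 goes from 8.71 to 9.58 while Psmb6 goes from 9.94 to 10.07; the distance between lines of different genes has no meaning, since probe sets differ in brightness.

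The change of an inducible subunit relative to the constitutive subunit it replaces does not depend on centring. Without TCF-1, Psmb9 was higher relative to Psmb6 by 0.41 (1.33-fold) and Psmb10 relative to Psmb7 by 0.33 (1.26-fold). Psmb8 was the reverse, lower relative to Psmb5 by 0.40, because Psmb5 was itself higher by 0.47. With the transgene, the inducible subunit was lower relative to its partner in all 3 positions, by 0.33 for Psmb9, 0.18 for Psmb10 and 0.37 for Psmb8. Against wild type, the β1 and β2 positions thus differed in opposite directions on these arrays, while the β5 position was lower on both. Between the transgenic and the TCF-1-deficient array, Psmb9 relative to Psmb6 differed by -0.74, Psmb10 relative to Psmb7 by -0.51 and Psmb8 relative to Psmb5 by 0.03. For Psmb11, a dim gene with 1 value, the ratio to Psmb5 only repeats the difference of Psmb5.

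PA28 is a ring of Psme1 and Psme2 subunits, induced by interferon like the immunoproteasome, that opens the core particle. Psme2 was at 9.97 in wild type, 9.81 with the transgene and 10.69 without TCF-1. Its difference of 0.72 without TCF-1 (1.65-fold) was the highest of the 48 genes, at percentile 97.3 of named genes. Of the brighter named genes, 96.1% had differences of 0.72 or less. Psme1 was at 10.35, 10.29 and 10.77, a difference of 0.42 without TCF-1 and of -0.06 with the transgene; the latter became 0.01 with arrays centred on all probe sets. Both subunits were highest on the TCF-1-deficient array. Psme2b, a close copy of Psme2, had no probe set of its own, and 1 probe set that names both genes was not used, so the signal of Psme2 may hold some of the copy. The other activators differed less: Psme3, the nuclear PA28γ, by 0.13, and Psme4, which encodes PA200, by -0.02. The inhibitor Psmf1 had 1 value on all arrays.

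In the regulatory particle, 4 of 6 ATPases were above wild type without TCF-1 and 2, Psmc2 and Psmc3, were identical. Psmc1, Psmc5 and Psmc4 were higher by 0.25, 0.23 and 0.23, and the median over the ring was 0.12. The 2 probe sets of Psmc1 gave 0.25 and 0.05. Among the 11 non-ATPase subunits, 6 were above, 3 below and 2 identical, with a median of 0.20. Psmd1, a large scaffold of the base, had the largest difference: 10.72 in wild type, 10.62 with the transgene and 11.21 without TCF-1, a difference of 0.50 (1.41-fold). Psmd14, the metalloprotease that cuts ubiquitin chains off the substrate, was at 10.89, 10.75 and 11.20. Both were highest without TCF-1 and lowest with the transgene. Psmd8 and Psmd3 were below wild type without TCF-1 by 0.10 and 0.06. Psmd4, a ubiquitin receptor, was at -0.0011 from wild type, and Psmd11 and Psmd13 were identical on all arrays.

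The chaperones that build the particles were not alike. Psmg1, which pairs with Psmg2 to start the α ring, was at 9.33 in wild type, 9.29 with the transgene and 9.89 without TCF-1, a difference of 0.55 (1.47-fold) without TCF-1. Its difference of -0.04 with the transgene became 0.04 with arrays centred on all probe sets. Psmg2, its partner, differed by 0.13 without TCF-1. Psmg3 and Psmg4, which form the other chaperone pair, differed by 0.13 and 0.10, and Psmg3 was below the median level of named genes on every array. All 4 were above wild type without TCF-1, with a median of 0.13. Of the chaperones of the regulatory particle base, Psmd9 was higher by 0.07, and Psmd5 and Psmd10 had 1 value on all arrays.

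With the β-catenin transgene, the proteasome genes stayed close to wild type. Of the 48 genes, 14 were above, 17 below and 17 identical, against 24.5%, 22.2% and 53.3% of named genes, and the median was 0. Of the brighter named genes 27.8% were above, 37.4% below and 34.8% identical. At 1.5-fold 0 were higher and 0 lower, against 0.487% and 0.667% of named genes and 0.772% and 1.05% of the brighter ones. At 2-fold the count was likewise 0 and 0, against 0.15% and 0.0953% of named genes and 0.221% and 0.171% of the brighter ones. The lowest was Psmb9 (-0.33), followed by Psmg4 (-0.24), Psmb8 (-0.23), Psma1 (-0.20), Psma7 (-0.16) and Psme2 (-0.16). Psmd9 (0.18), Psma3 (0.17), Psma2 (0.15) and Psmb5 (0.14) were the highest. By role, 6 of 7 constitutive β subunits were above wild type and 3 of 4 inducible ones below it, with Psmb11 identical. Psmb6, at 0.0004, turned to -0.004 with arrays centred on named genes. Of the 6 ATPases 5 were identical to wild type, and Psmc4 differed by 0.004. With arrays centred on all probe sets, 38 of the 48 were above wild type and 10 below, against 86.1% and 13.9% of named genes. Centred on named genes, 13 were above and 35 below, against 24.1% and 75.9%. With the loess trend removed, 28 were above and 20 below, against 38.6% and 61.4%.

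Between the transgenic and the TCF-1-deficient array, which were both set against the same wild type array above, the members were mostly lower with the transgene: 31 of 48 were lower, 6 higher and 11 identical. Of named genes 34.4% were lower, 24.6% higher and 41.0% identical, and of the brighter ones 36.0%, 42.9% and 21.1%. The members lower by 1.5-fold numbered 5, with 0 higher, against 4.4% and 6.29% of named genes and 7.12% and 11.8% of the brighter ones: Psme2 (-0.88), Psmb9 (-0.87), Psmb10 (-0.61), Psmg1 (-0.59) and Psmd1 (-0.59). This is 10.4% of the members. Psme2, Psmb9 and Psmb10 are interferon-inducible, and so are Psme1 (-0.48) and Psmb8 (-0.31), which did not pass. At 2-fold 0 were lower and 0 higher, against 1.57% and 2.45% of named genes and 2.47% and 4.64% of the brighter ones. The count lower by 1.5-fold was 2, Psmb9 and Psme2, with arrays centred on named genes, against 3.86% of named genes. It was 7 with arrays centred on all probe sets, against 5.03%, where Psma5 and Psma7 joined the 5. The direction depended on scaling here too. Centred on all probe sets, 44 members were lower and 4 higher, against 78.4% and 21.6% of named genes. Centred on named genes, 28 were lower and 20 higher, against 29.5% and 70.5%. With the loess trend removed, 42 were lower and 6 higher, against 38.9% and 61.1%.

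Other genes of the pathway were taken from lists by function. Of 13 measured proteins that assemble, bind or feed the proteasome, none passed 1.5-fold against wild type on either array, and their median without TCF-1 was 0.03. Pomp, the chaperone that completes the β rings, was at 9.52 in wild type, 9.24 with the transgene and 9.55 without TCF-1. Ubqln1, a shuttle for ubiquitylated proteins, was at 10.33, 10.70 and 10.11, and was the 1 gene of this list past 1.5-fold between the transgenic and the TCF-1-deficient array (0.59). Of 8 regulators of proteasome genes, none passed 1.5-fold against wild type. Few genes did: of all named genes, 4.04% were higher and 6.9% lower by 1.5-fold without TCF-1, and 0.487% and 0.667% with the transgene. Between the transgenic and the TCF-1-deficient array, 6.29% of named genes were higher and 4.4% lower by that much. Nfe2l1, which raises proteasome genes when the proteasome is short, was at 9.14, 9.46 and 9.15, and Nlrc5, the activator of class I genes, at 9.79, 9.69 and 9.75. Irf1, an interferon-induced factor that acts on Psmb9, was at 9.08 in wild type, 8.67 with the transgene and 9.26 without TCF-1, and the difference between the last pair passed 1.5-fold (-0.59). Of the ubiquitin and activating enzyme genes, Uba6 alone of 6 had a usable probe set, with 1 value on all arrays.

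Of the inducible subunits, Psmb8 and Psmb9 lie beside peptide transporter genes in the class II region of chromosome 17, in the order Psmb9, Tap1, Psmb8, Tap2, while Psmb10 lies on chromosome 8 and Psmb11 on chromosome 14. The genes of the cluster on chromosome 17 did not go the same way without TCF-1. Tap1, which starts from the other end of the 225 bases printed above with Psmb9, was at 10.01 in wild type, 9.82 with the transgene and 9.70 without TCF-1 (-0.31), where Psmb9 was higher by 0.54. Tap2 was at 10.01, 9.90 and 9.66 (-0.35). Both transporter genes were below wild type in all 4 scalings and Psmb9 above it in all 4. Of the 9 measured genes of class I peptide loading, none passed 1.5-fold on either array, 4 were above and 4 below wild type without TCF-1, and the median was 0. Of all named genes, 37.6% were above and 26.1% below without TCF-1. Past 1.5-fold were 4.04% higher and 6.9% lower there, and 0.487% and 0.667% with the transgene. B2m, the light chain of class I molecules, was at 13.15, 13.01 and 13.42, and Erap1, which trims peptides, at 9.25, 8.92 and 9.40.

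Most interferon-stimulated genes were above wild type without TCF-1 and below it with the transgene. Of 11 measured, 8 were above and 2 below wild type without TCF-1 (median 0.23), against 37.6% and 26.1% of named genes. With the transgene 1 was above and 9 below (median -0.24), against 24.5% and 22.2%. Mx1 (4.93, 4.89 and 4.93) and Iigp1 (5.06, 5.06 and 5.24) were below the median level of named genes on every array. Without TCF-1, 2 passed 2-fold, Usp18, which removes the ubiquitin-like ISG15 (1.96), and Rtp4 (1.23). With the transgene Rtp4 was lower by that much (-1.22) and Ifit1 passed 1.5-fold (-0.73). On the transgenic array Rtp4 (6.59) and Ifit1 (6.85) were themselves below the median level of named genes, 6.90. Stat2, a transducer of interferon signals, and Ifit1 were the 2 below wild type without TCF-1 (-0.53 and -0.32). Irf7, which drives interferon genes, was at 7.90, 7.66 and 8.29. Irf9, which lies near Psme2 on chromosome 14, was at 8.63 in wild type, 8.36 with the transgene and 8.72 without TCF-1.

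**Figure D4:**
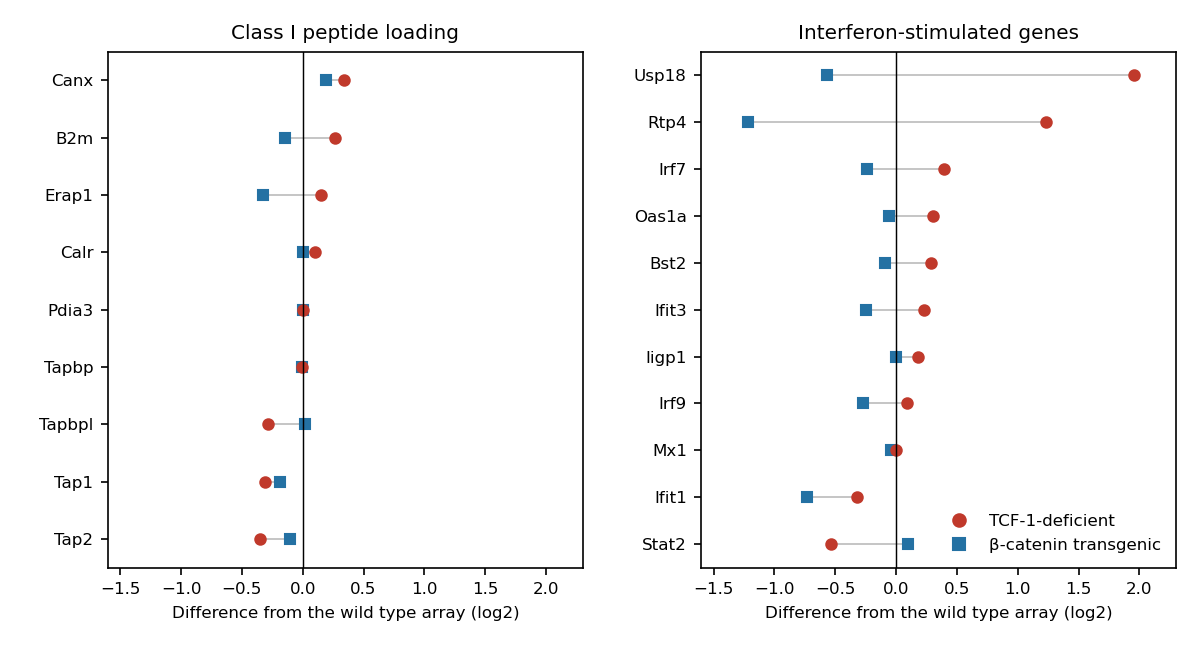
Difference from the wild type array in log2 units (horizontal axis) for the measured genes of class I peptide loading and for interferon-stimulated genes; circles are the TCF-1-deficient and squares the β-catenin transgenic array, 1 array each. Tap1 and Tap2 lie below 0 on both arrays, whereas Usp18 and Rtp4 lie at 1.96 and 1.23 without TCF-1 and below 0 with the transgene.

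Without TCF-1, markers of B lymphocytes and of myeloid and dendritic cells were mostly above wild type, and genes of dividing cells went both ways. These counts use the deposited values. Of all named genes, 37.6% were above and 26.1% below wild type without TCF-1, and 24.5% and 22.2% with the transgene. All 6 measured B lymphocyte markers were above wild type without TCF-1, by 0.04 to 2.53 (median 0.85). Their mean level was 7.02 in wild type, 7.26 with the transgene and 8.08 without TCF-1. Of 9 myeloid and dendritic markers 6 were above and 1 below wild type without TCF-1, with mean levels of 6.50, 6.75 and 6.90 in the same order. With the transgene, where Psmb8, Psmb9 and Psmb10 were lower, the median difference was 0.11 for the B lymphocyte markers (4 above and 2 below) and 0.01 for the myeloid and dendritic markers (5 above and 4 identical); the highest were Cd79a (0.97) and Itgam (0.96). Of 11 proliferation genes 6 were above and 3 below wild type without TCF-1 (median 0.19), and 0 above and 9 below with the transgene (median -0.10). None passed 1.5-fold against wild type. The highest without TCF-1 were Mcm2 (0.43) and Mcm5 (0.42), and the lowest Mki67 (-0.28) and Top2a (-0.14). With the transgene, Mcm2 (-0.03), Mcm5 (-0.05) and Pcna (-0.04) were below wild type by less than the 0.08 that centring on all probe sets adds. The part of these cells and of proliferation in the differences of the proteasome genes was not tested. Markers listed for cortical epithelium had a median difference of 0 on both arrays, and those of medullary epithelium of 0.07 without TCF-1 and 0 with the transgene. These medians include identical values, which are not a measured equality. Of 7 medullary markers, 4 were above, 1 below and 2 identical without TCF-1, and 2 above, 1 below and 4 identical with the transgene. The 1 below was Cldn4 both times, at 9.38 in wild type, 8.94 with the transgene and 7.94 without TCF-1.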

How the data were processed

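Thymocyte RNA was hybridised to 1 Affymetrix whole-transcript array per genotype, 3 in all. The authors deposited normalized values, read here as log2 from their range since no header states the base. RMA and Partek are named per the submitters' processing notes, with no version, and their settings are not given in those sources. Of 35556 probe sets, 21789 have 1 symbol in the platform's annotation and 1621 several; the other 12146 are unnamed here. The disrupted gene and the transgene themselves were not analysed here, so the labels were not checked on them. Probe sets with several symbols were left out, and for a gene with several probe sets the one with the highest mean was used. Columns of other samples numbered 0. Differences, counts and medians were computed with Python 3.11.15, pandas 2.3.3, NumPy 2.4.6 and statsmodels 0.14.6, and the steps were tested on simulated data. The members, the 12 other gene lists and the size rules were chosen with earlier results of these data known. Named were the catalytic subunits, PA28, each member past 1.5-fold and the extremes of each role; members named besides were chosen after their values were seen. Arrays limit the precision by their number. Alternatives were other thresholds, centrings, loess (span 0.3), probe set rules and a filter on dim genes.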

Additional observations from a re-analysis of the deposited data

How the results depend on the processing

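No paired analysis was possible because each genotype has 1 array and the labels carry no replicate numbers. At 2-fold the count of members was 0 in each direction and comparison under every scaling, probe set rule and filter run; at 1.5-fold it became 1 higher without TCF-1 and 5 lower with the transgene than without TCF-1. Medians by role were taken as moved beyond 0.1. Centring on all probe sets, which by construction adds the same amount to each gene, gave medians without TCF-1 of 0.32 for α, 0.26 for constitutive β, 0.43 for inducible β, 0.26 for ATPase, 0.34 for non-ATPase and 0.13 for base chaperone genes, 0.26 for activators and inhibitor and 0.26 for core chaperones. Means in place of medians gave 0.25 for activators and inhibitor without TCF-1, and -0.28 for them and -0.26 for α subunits between transgenic and TCF-1-deficient. Leaving out dim genes removed Psmb11 and gave 0.52 and -0.61 for the inducible subunits in those comparisons. Leaving out members with 1 value on all arrays, an alternative chosen after seeing the data, gave the same for them, 0.23 and -0.22 for ATPases, and 0.27 and -0.28 for activators and inhibitor. Loess moved Psmb11 relative to Psmb5 without TCF-1 to -0.58. The other 251 of 273 values stayed within 0.1, or within 1.5 times for counts. Many of these had no room to move. Centring on named genes shifts every median by less than 0.1, and so does centring on all probe sets in the transgenic comparisons. The catalytic subunits of the pairs have 1 probe set each, so the probe set rules leave the pairs unchanged. The number of values that stayed is therefore not a measure of robustness. Without replicates, none of these differences can be set against the spread between mice, and signal over background was not given for dim genes such as Psmb11 and Psma8.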
